A study of Mus musculus with 30 samples.

Results

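The Ras and MAP kinase pathway was followed as a list of 37 genes across the maturation of the mouse hippocampus in wild-type animals and in animals heterozygous for Nf1. Nf1 encodes neurofibromin, which turns Ras off, and was kept out of the list. A gene entered through every non-control probe set (a group of short probes that together read a transcript) that the platform annotation gives that symbol alone. Of the 37 genes, 29 had such a probe set, out of 8251 genes named in this way on the array, and 40 probe sets belonged to them. A gene whose mean intensity lay under 31 units counted as not measured, which applied to Ptpn11, Araf and Braf and left 26 measured genes with 30 probe sets. No probe set carried the single symbol of Hras, Map2k7, Mapk3, Rps6ka1, Rps6ka2, Spry1, Spry2 or Spred1, and these 8 genes were not analysed here.

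The arrays were single-colour Affymetrix MG-U74Av2 arrays, 30 in all, each read with total RNA of hippocampi pooled from 2 male pups of the same genotype. The pups came from matings of C57BL/6 mice with mice heterozygous for Nf1, and liver taken from each pup served for genotyping. Wild-type pools numbered 3 at P10, 4 at P15 and 2 each at P18, P20, P28 and P32, where P10 stands for postnatal day 10. Heterozygous pools numbered 4 at P10, 4 at P15, 2 each at P18, P20 and P28, and 1 at P32. The labels name no treatment, and they give neither litters nor the parent that carried the mutant allele. Libraries are named below by age and by the number and letter in their titles, which no label explains. P-values measure the spread between arrays, each taken here as its own pool of pups.

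Ras proteins are small GTPases that signal while bound to GTP. Exchange factors such as Sos, RasGRF and RasGRP proteins load them with GTP, and GTPase-activating proteins such as neurofibromin and p120 RasGAP make them hydrolyse it. Active Ras recruits Raf kinases, which phosphorylate the kinases MEK1 and MEK2 (genes Map2k1 and Map2k2), which in turn activate ERK, and phosphatases and Sprouty proteins damp the output. Parallel cascades of the same build run from Map2k4 to the JNK kinases, from Map2k3 to p38 and from Map2k5 to ERK5. In the hippocampus the pathway links calcium and growth factor signals to synaptic plasticity, and Nf1 heterozygous mice are known for learning deficits.

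The start regions of 3 genes are shown because the results below turn on them: Map2k1 rose with age with the smallest adjusted p of the list, and Mapk9 and Rasgrp1 had the largest called differences between genotypes at P18. Each line holds up to 250 bases before the transcript start, outside the annotated gene, in transcript direction, from RefSeq on GRCm38.p6. Capitals mark every match, on either strand, to the GC box GGGCGG or the ETS core CCGGAA. Searches for the cyclic AMP response element TGACGTCA and the Egr site GCGGGGGCG found no match in the 3 windows. Over the 32851 promoter windows of 250 bases, 32.7% held the GC box, 12% the ETS core, 1.55% the cyclic AMP response element and 2.57% the Egr site.
Map2k1, chr9:64253606-64253855, minus strand: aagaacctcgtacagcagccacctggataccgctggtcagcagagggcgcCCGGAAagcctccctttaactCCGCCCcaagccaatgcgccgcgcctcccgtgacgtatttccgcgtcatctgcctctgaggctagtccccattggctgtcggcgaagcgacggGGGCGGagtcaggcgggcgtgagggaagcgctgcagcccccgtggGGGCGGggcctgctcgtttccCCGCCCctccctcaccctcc
Mapk9, chr11:49846501-49846727, plus strand: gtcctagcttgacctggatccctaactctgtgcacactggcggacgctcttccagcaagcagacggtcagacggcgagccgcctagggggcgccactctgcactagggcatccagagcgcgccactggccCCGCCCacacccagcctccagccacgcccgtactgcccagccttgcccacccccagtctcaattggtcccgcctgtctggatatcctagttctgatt
Rasgrp1, chr2:117342878-117343127, minus strand: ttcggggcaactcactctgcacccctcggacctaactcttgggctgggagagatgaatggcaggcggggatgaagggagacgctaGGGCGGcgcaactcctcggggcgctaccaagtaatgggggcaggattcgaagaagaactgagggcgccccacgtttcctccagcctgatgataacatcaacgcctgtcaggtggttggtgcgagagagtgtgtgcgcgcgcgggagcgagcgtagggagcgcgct
The Map2k1 window held 4 GC boxes and 1 ETS core, and the other windows held 1 GC box each. The Mapk9 window is 227 bases long because the rest lies inside the annotated gene. A match describes these letters and shows no binding.

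Array medians lay between 49.99 and 59.1 intensity units after the authors' scaling, and the number of arrays limits the precision. Nf1 was dim in every library, with values from 1.43 to 19.1, so its signal did not check the genotype labels. Of 10 listed markers of pyramidal and granule neurons 8 had a probe set. All 8 were measured, with summed intensities from 2482 to 4367 over the libraries. The log2 values of the heterozygous P18 libraries 1a and 1b correlated at 0.930 with each other. Library 1b stood apart: its log2 values had a median correlation of 0.9082 with all other libraries, against 0.9555 for library 1a. Its log2 ratio of the 3' to the 5' Gapdh control probe set, which rises as RNA is degraded or shortened in labelling, was 0.48, against -0.051 in library 1a, and the same ratio for actin was 1.14 against 0.21. Counts at P18 are therefore given with and without it. Intensities of different probe sets cannot be ranked against each other, and in these bulk samples fewer cells of a type and less RNA per cell cannot be told apart.

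Between P10 and the latest ages, the mean of P28 and P32, genes of the pathway changed in both directions. The calcium-responsive exchange factor gene Rasgrf1 rose 3.12-fold and the MEK1 gene Map2k1 rose 2.85-fold. The exchange factor gene Rasgrp2 fell 2.79-fold, Nras fell 1.83-fold and the JNK1 gene Mapk8 fell 1.65-fold. Averaged over both genotypes, 19 of the 26 measured genes passed the test, which below is called "called": limma across all 7453 probe sets tested, with a two-sided Benjamini-Hochberg adjusted p below 0.05. Of the 19, 9 rose and 10 fell. Mapk7, 1 of the 10, passed the filter on low values through its earlier libraries alone, and without it 18 of 25 genes were called, 9 up and 9 down. The share called among all probe sets was 53.7%, so many genes of this tissue changed over this span. The median log2 difference of the 26 genes was -0.20, against -0.058 over all probe sets tested. In wild type alone 18 genes were called (17 without Mapk7), 7 up and 11 down, beside 38.2% of all probe sets. In heterozygotes alone 16 were called (15 without Mapk7), 8 up and 8 down, beside 36.5% of all. For the difference in maturation between genotypes limma called 0 of the 26 genes and 0% of all probe sets, while 508 of all probe sets had an unadjusted p below 0.05.

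**Figure D1:**
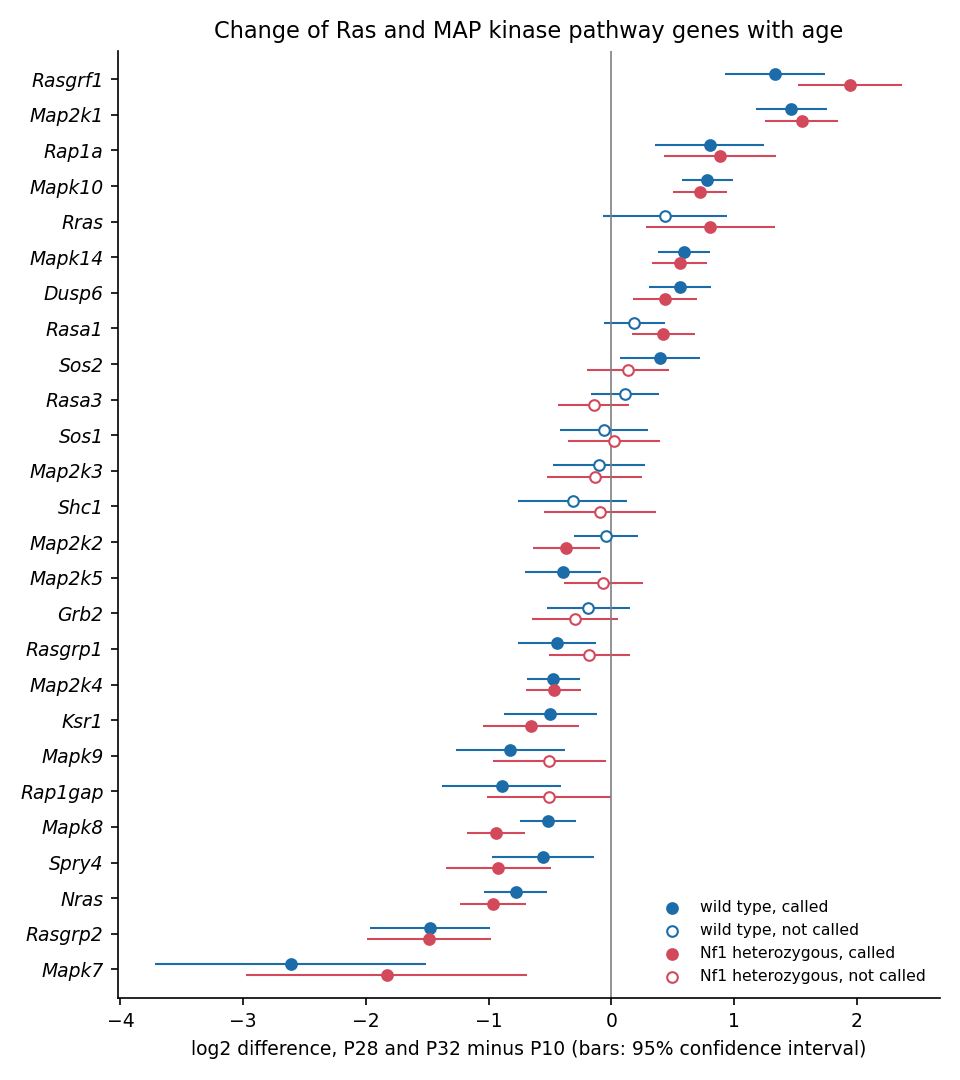
Log2 difference between the mean of P28 and P32 and P10 for each of the 26 measured genes, in wild type (blue) and Nf1 heterozygotes (red), with 95% confidence intervals and filled points where the limma adjusted p is below 0.05. Rasgrf1 and Map2k1 lie farthest to the right. The position of Mapk7 on the left has no firm size, because its values at P28 and P32 are all under 31 units. The intervals of the genotypes overlap for every gene.

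All 3 measured GTPase genes were called. In wild type Nras read 821, 1023 and 967 at P10, 661, 611, 612 and 586 at P15, 599 and 572 at P18, 384 and 480.3 at P20, 666 and 579 at P28 and 482 and 471 at P32. In heterozygotes Nras read 892, 1067, 874 and 1138 at P10, 569, 694, 564 and 545 at P15, 523 and 718 at P18, 463 and 602 at P20, 519 and 468 at P28 and 517 at P32. All 7 P10 libraries lay above all 7 libraries of P28 and P32. Nras, whose product is a classical Ras protein (chromosome 3, 103058285 to 103067914 on GRCm38.p6, the build of all gene positions given here), fell by 0.87 on the log2 scale (SE 0.091, adjusted p = 2.55e-08), from 937 ± 104 (SD, n = 3) to 549 ± 91.6 (SD, n = 4) in wild type. A second, dimmer Nras probe set (160925_at) did not pass, with a difference of -0.051 (95% confidence interval -0.33 to 0.22), so the fall rests on the probe set 94362_at.

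Rap1a encodes a Ras relative that works in adhesion and synaptic signalling. In wild type Rap1a read 96.02, 98.7 and 57.6 at P10, 111, 107, 86.00 and 84.96 at P15, 99.2 and 102 at P18, 95.01 and 130.0 at P20, 153 and 142 at P28 and 146 and 129.8 at P32. In heterozygotes Rap1a read 74.9, 68.8, 77.7 and 93.7 at P10, 84.2, 78.2, 122 and 97.6 at P15, 117 and 235 at P18, 119 and 101 at P20, 162 and 119.8 at P28 and 149 at P32. The P10 libraries were the lower ones and did not overlap with those of P28 and P32, and the heterozygous P18 library 1b held the highest value of all. Rap1a rose by 0.84 (SE 0.15, adjusted p = 6.84e-05), and its second probe set (100048_at) rose by 1.05 (SE 0.15, adjusted p = 2.45e-06). Rras encodes a GTPase of integrin adhesion. In wild type Rras read 34.4, 27.8 and 55.8 at P10, 52.99, 68.4, 59.2 and 66.7 at P15, 51.8 and 80.4 at P18, 51.2 and 49.9 at P20, 68.2 and 43.9 at P28 and 38.9 and 57.6 at P32. In heterozygotes Rras read 27.3, 33.4, 38.2 and 22.3 at P10, 53.7, 72.01, 81.5 and 56.3 at P15, 63.5 and 51.6 at P18, 64.9 and 64.9 at P20, 53.8 and 38.8 at P28 and 59.03 at P32. The P10 and late ranges of Rras overlapped, and all its values were low on the scale of the array. Of its 7 P10 libraries 3 lay under 31 units, in the range not counted as measured, so its rise has no firm size. Rras rose by 0.62 (SE 0.18, adjusted p = 0.00482), with a log2 difference of 0.81 in heterozygotes (adjusted p = 0.0147) and of 0.43 in wild type, which did not pass (adjusted p = 0.166). The heterozygous call was lost without the heterozygous P28 library 1a (adjusted p = 0.0645) or the heterozygous P10 library 2b (0.053).

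The exchange factor genes included the largest rise of the list. In wild type Rasgrf1 gave 252, 294 and 265 at P10, 518, 608, 457 and 324 at P15, 583 and 638 at P18, 845 and 874 at P20, 714 and 751 at P28 and 616 and 649 at P32. In heterozygotes Rasgrf1 gave 228, 246, 262 and 219 at P10, 526, 369, 574 and 815 at P15, 743 and 505 at P18, 602 and 859 at P20, 790.2 and 915 at P28 and 991 at P32. Every P10 library was below every later library. Rasgrf1, a calcium- and calmodulin-responsive exchange factor of neurons (chromosome 9, 89909508 to 90026979), rose by 1.64 (SE 0.14, adjusted p = 1.6e-09). The wild-type mean went from 270.4 ± 21.7 (SD, n = 3) to 683 ± 61.3 (SD, n = 4) and the heterozygous mean from 239 ± 19.2 (SD, n = 4) to 899 ± 101 (SD, n = 3). The log2 rise was 1.95 in heterozygotes and 1.33 in wild type, and their difference of 0.61 did not pass the test (adjusted p = 0.7).

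Rasgrp2, known as an exchange factor for Rap1 that responds to calcium and diacylglycerol, went the other way. In wild type Rasgrp2 gave 108, 117 and 149 at P10, 73.9, 53.6, 81.9 and 109 at P15, 61.7 and 80.8 at P18, 52.7 and 56.6 at P20, 45.9 and 37.5 at P28 and 36.9 and 60.9 at P32. In heterozygotes Rasgrp2 gave 115, 125, 138 and 151 at P10, 81.03, 75.2, 42.3 and 65.4 at P15, 52.9 and 53.4 at P18, 32.8 and 49.1 at P20, 37.01 and 51.9 at P28 and 50.5 at P32. All P10 libraries lay above all libraries of P28 and P32. Rasgrp2 (chromosome 19, 6398957 to 6415216) fell by 1.48 (SE 0.17, adjusted p = 1.33e-07), by 1.48 in wild type and by 1.48 in heterozygotes. Sos2, which loads Ras after receptor activation, rose by 0.27 with an adjusted p of 0.0497, at the edge of the threshold. Its call was lost on leaving out any of 19 of the 29 libraries that could be left out (adjusted p from 0.0501 to 0.124). Rasgrp1, a diacylglycerol-responsive Ras exchange factor, fell by 0.31 (SE 0.11, adjusted p = 0.0216). That call was lost without the wild-type P28 library 1b (adjusted p = 0.0504), the wild-type P32 library 1a (0.0566) or the wild-type P10 library 2b (0.0613), and after quantile normalization (adjusted p = 0.144). By genotype, Sos2 and Rasgrp1 were called in wild type and not in heterozygotes, and both wild-type calls were lost on leaving out single libraries. The heterozygous means moved the same way, from 101 to 113 for Sos2 and from 102 to 91.3 for Rasgrp1. The difference between genotypes was called for neither. Sos1 had a difference of -0.017 (95% confidence interval -0.28 to 0.24) and was not called.

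Of the 3 measured genes for GTPase-activating proteins, Rap1gap fell and Rasa1 rose. In wild type Rap1gap read 533, 560.1 and 527 at P10, 573, 553, 701 and 797 at P15, 761 and 812 at P18, 547 and 636 at P20, 301 and 338 at P28 and 209 and 336 at P32. In heterozygotes Rap1gap read 499, 589, 555 and 619.6 at P10, 626, 679, 531 and 801 at P15, 708 and 296 at P18, 432 and 781 at P20, 283 and 484 at P28 and 426 at P32. The late libraries were all below the P10 libraries, and the heterozygous P18 library 1b, at 296, was near the late level. Rap1gap, which turns Rap1 off, fell by 0.70 (SE 0.17, adjusted p = 0.0013). By genotype it was called in wild type (-0.89, adjusted p = 0.00436) and not in heterozygotes, where its mean fell from 566 to 398. The difference between genotypes was not called. Rasa1, the p120 RasGAP, ranged from 195 to 205 at P10 and from 219.8 to 235 at P28 and P32 in wild type. In heterozygotes it ranged from 164 to 187 and from 216 to 276. Rasa1 rose by 0.31 (SE 0.087, adjusted p = 0.00494) over both genotypes. By genotype it was called in heterozygotes (0.42, adjusted p = 0.00978) and not in wild type, and the difference between genotypes was not called. Rasa3, a GTPase-activating protein for Ras and Rap1, differed by -0.016 (95% confidence interval -0.22 to 0.19) and was not called.

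Neither measured adaptor gene was called over the whole span. Grb2, which brings Sos to receptors, differed by -0.24 (95% confidence interval -0.49 to 0.00034, adjusted p = 0.0848). Shc1 differed by -0.20 (-0.52 to 0.12). The Raf genes Araf and Braf were too dim to measure: Araf ranged from 6.99 to 41.4 intensity units, and the brighter Braf probe set from 5.71 to 23.7. Ksr1, a scaffold that holds Raf, MEK and ERK together, fell by 0.57 (SE 0.13, adjusted p = 0.000734). Its P10 values ranged from 74.8 to 89.02 in wild type and 82.1 to 94.9 in heterozygotes, above its late values of 41.8 to 66.7 and 47.2 to 63.9.

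Among the 5 MAP kinase kinase genes, the MEK1 gene rose and the JNK kinase kinase gene Map2k4 fell. In wild type Map2k1 measured 305, 327 and 306 at P10, 531, 678, 549.6 and 412 at P15, 631 and 573 at P18, 685 and 798 at P20, 836 and 825 at P28 and 882 and 918 at P32. In heterozygotes Map2k1 measured 310.0, 277, 307 and 296 at P10, 493, 429, 708 and 588 at P15, 779 and 691 at P18, 806 and 688 at P20, 866 and 879 at P28 and 874 at P32. No P10 library reached any later library. Map2k1 (chromosome 9, 64185769 to 64253605) rose by 1.51 (SE 0.10, adjusted p = 2.35e-11), from 313 ± 12.1 (SD, n = 3) to 865 ± 43.1 (SD, n = 4) in wild type and from 298 ± 14.9 (SD, n = 4) to 873 ± 6.62 (SD, n = 3) in heterozygotes. Map2k2, which encodes the close relative MEK2, differed by -0.21 (95% confidence interval -0.40 to -0.016) and was not called over both genotypes. It fell by 0.37 in heterozygotes (adjusted p = 0.0319), a call lost on leaving out any of 4 libraries (adjusted p from 0.0509 to 0.0786). Map2k4 fell by 0.47 (SE 0.075, adjusted p = 1.33e-05). Map2k3 differed by -0.12 (-0.39 to 0.15), and Map2k5 differed by -0.23 (-0.45 to -0.0057). Neither passed over both genotypes. Map2k5 fell by 0.39 in wild type alone (adjusted p = 0.0409), a call lost on leaving out any of 6 libraries (adjusted p from 0.0668 to 0.177).

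Of the 5 measured MAP kinase genes, the 3 JNK genes and the p38 gene were called, and the JNK genes did not move together. Mapk7 is described apart because of its dim late values. In wild type Mapk8 stood at 589, 612 and 596 at P10, 535, 457, 414 and 373 at P15, 301 and 339 at P18, 471 and 419.8 at P20, 433 and 452 at P28 and 439.6 and 362 at P32. In heterozygotes Mapk8 stood at 651, 653, 673 and 680.3 at P10, 465, 408, 373 and 384 at P15, 436 and 550.1 at P18, 445 and 414 at P20, 345 and 325 at P28 and 359 at P32. The P10 libraries were the highest, and the lowest wild-type values were those of P18. Mapk8, the gene of JNK1 (chromosome 14, 33377898 to 33447353), fell by 0.73 (SE 0.08, adjusted p = 5.95e-08). Mapk9, the gene of JNK2, fell by 0.66 (SE 0.15, adjusted p = 0.000908), with P10 and late values apart in wild type and meeting near 124 in heterozygotes. By genotype Mapk9 was called in wild type (-0.82, adjusted p = 0.00406) and not in heterozygotes, where its mean fell from 157 to 110. The difference in maturation between genotypes was not called for Mapk9. Its course through the ages is given below.

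Mapk10, the gene of JNK3, the JNK found mainly in the nervous system, rose instead. In wild type Mapk10 stood at 814, 762 and 749.9 at P10, 1008, 1086, 966 and 1024 at P15, 921 and 807 at P18, 1042 and 995 at P20, 1599 and 1121 at P28 and 1449.5 and 1218 at P32. In heterozygotes Mapk10 stood at 774, 679, 799.6 and 791 at P10, 1042, 1079.7, 1088 and 1009 at P15, 909.5 and 1149.7 at P18, 1131 and 1107 at P20, 1224 and 1234 at P28 and 1278 at P32. The P10 and late libraries did not overlap. Mapk10 (chromosome 5, 102908547 to 103212604) rose by 0.75 (SE 0.074, adjusted p = 9.42e-09), and a second probe set (161575_f_at), whose suffix marks probes shared within a gene family, rose by 0.57 (SE 0.16, adjusted p = 0.00384). The p38 gene Mapk14, read by a probe set that can also match other transcripts, rose by 0.58 (SE 0.074, adjusted p = 6.95e-07).

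Mapk7, the gene of ERK5, was dim at the late ages. In wild type Mapk7 stood at 84.3, 90.5 and 84.1 at P10, 17.4, 15.2, 71.7 and 46.2 at P15, 62.3 and 76.4 at P18, 23.2 and 44.5 at P20, 12.9 and 8.10 at P28 and 16.8 and 22.7 at P32. In heterozygotes Mapk7 stood at 23.6, 90.6, 71.9 and 74.4 at P10, 59.9, 37.4, 13.6 and 28.2 at P15, 41.7 and 13.7 at P18, 43.7 and 19.8 at P20, 19.7 and 19.4 at P28 and 13.7 at P32. The heterozygous P10 library 1a was far below the other P10 libraries, and all 7 values at P28 and P32, from 8.10 to 22.7, were under 31 units, in the range not counted as measured. The gene passed the filter through its earlier libraries, so that its call carries no weight and its fall has no firm size. The log2 difference was -2.22 as measured and -1.14 with 32 units added before the log.

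The feedback genes split. In wild type Dusp6 read 285, 299.6 and 334 at P10, 291, 341, 433 and 383 at P15, 318 and 304 at P18, 418 and 460.0 at P20, 602 and 475 at P28 and 411 and 347 at P32. In heterozygotes Dusp6 read 399, 339, 325 and 351 at P10, 393, 437, 325 and 401 at P15, 506 and 504 at P18, 405 and 368 at P20, 466 and 453 at P28 and 496 at P32. The P10 and late ranges overlapped. Dusp6, a phosphatase that switches ERK off and is itself induced by ERK activity, rose by 0.50 (SE 0.089, adjusted p = 4.86e-05). In wild type Spry4 read 134, 98.1 and 113 at P10, 86.5, 104, 69.1 and 94.5 at P15, 88.5 and 88.5 at P18, 86.9 and 62.9 at P20, 81.9 and 92.8 at P28 and 71.7 and 66.4 at P32. In heterozygotes Spry4 read 106, 98.3, 116 and 109 at P10, 61.5, 105, 129.7 and 95.4 at P15, 55.04 and 86.1 at P18, 109 and 91.7 at P20, 58.5 and 69.7 at P28 and 50.3 at P32. The late libraries lay below the P10 libraries, with 1 late value close to them. Spry4, a Sprouty inhibitor of receptor signalling to Ras, fell by 0.74 (SE 0.14, adjusted p = 0.000149). In wild type alone its call was lost on leaving out any of 5 libraries (adjusted p from 0.0522 to 0.145).

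**Figure D2:**
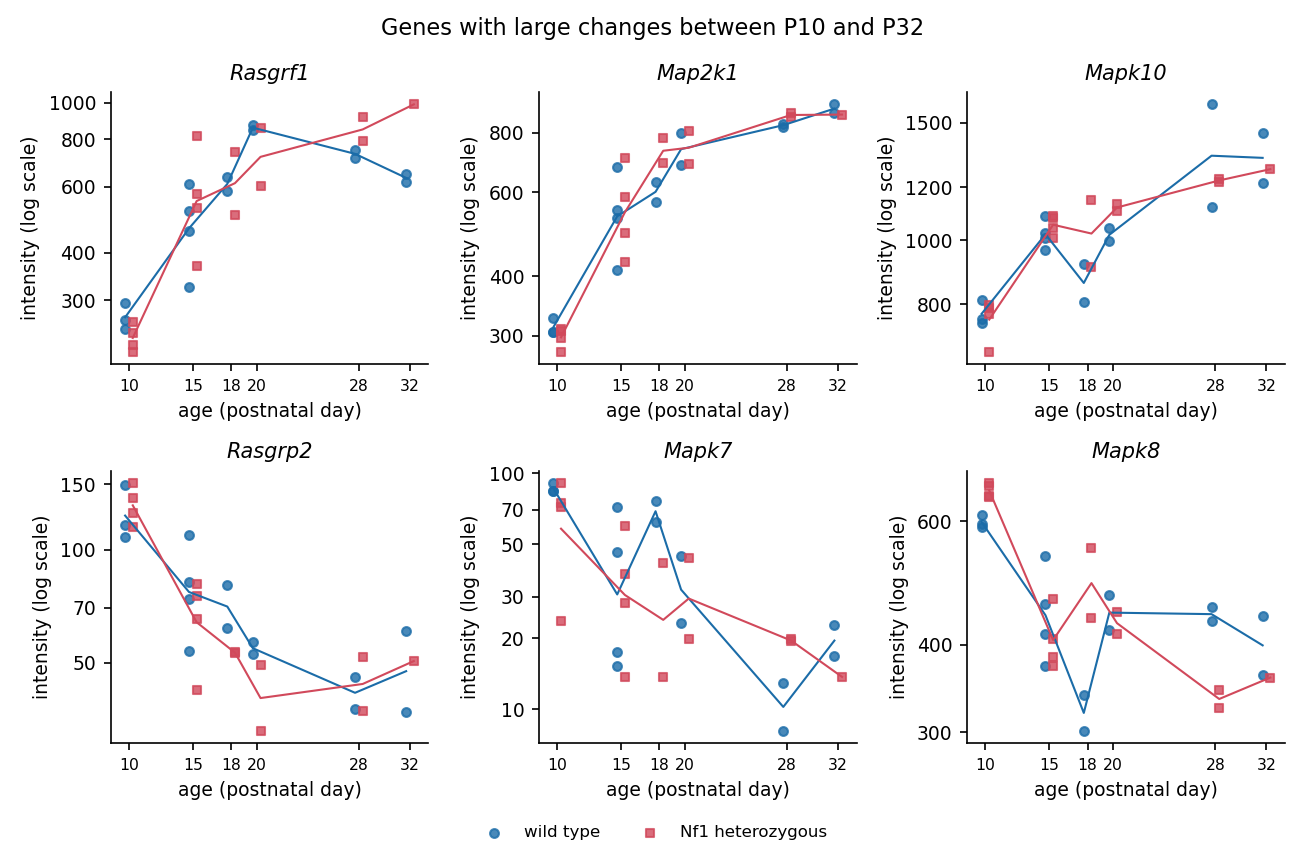
Intensity (log scale) against age in postnatal days for 6 genes, with a point per library, wild type in blue circles and Nf1 heterozygotes in red squares, and lines through the geometric mean of each group. Rasgrf1, Map2k1 and Mapk10 climb from P10 to the late ages while Rasgrp2, Mapk7 and Mapk8 fall, and the late Mapk7 values are all under 31 units.

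Markers of other cell types moved over the same span. All 7 measured oligodendrocyte markers rose. Their summed intensity ranged from 947 to 1070.2 at P10 and from 7535 to 8619 at P28 in wild type, and from 672 to 848 and 8846 to 9027 in heterozygotes, with Cnp too dim to measure. All 8 markers of immature neurons fell. Their wild-type sums ran from 12336 to 14093 at P10, 7379 to 7399.8 at P28 and 7406 to 8283 at P32. In heterozygotes the sums ran from 12954 to 14081 at P10 and 6421 to 6494 at P28, with 7355 at P32. Of the 8 markers of pyramidal and granule neurons, 1 rose and 2 fell, and of 8 interneuron markers 3 rose and 4 fell. Of 8 astrocyte markers 6 rose and 1 fell, and of 7 microglial markers 4 rose and 1 fell. Of 9 endothelial and mural markers 6 fell and 0 rose. Their wild-type sums ran from 1207 to 1397 at P10, 635 to 711 at P28 and 867 to 914 at P32. In heterozygotes these sums ran from 1153 to 1361 at P10 and 915 to 927 at P28, with 811 at P32. Of 6 thalamic markers 1 rose and 3 fell, of 4 choroid plexus markers 1 rose and 1 fell, and of 3 blood markers 1 fell. The part of these shifts in the pathway's changes was not tested.

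The changes were placed in time by comparing neighbouring ages, averaged over genotypes. From P10 to P15, 13 genes were called, 7 up and 6 down, beside 25.9% of all probe sets. Without Mapk7, 12 of 25 genes were called, 7 up and 5 down. Rasgrf1 rose by 0.995, Rras by 0.92, Map2k1 by 0.82, Ksr1 by 0.63, Rasgrp1 by 0.54, Mapk10 by 0.44 and Mapk14 by 0.32 on the log2 scale, with adjusted p from 6.57e-07 to 0.00159. Apart from Mapk7, described above, Rasgrp2 fell by 0.86, Nras by 0.67, Mapk8 by 0.58, Sos1 by 0.39 and Map2k2 by 0.28, with adjusted p from 3.02e-06 to 0.0207. Leaving out the wild-type P10 library 1b ended the Sos1 call (adjusted p = 0.0742), and leaving out library 2a of that group ended the Map2k2 call (0.0846). Rasgrp1 and Ksr1 thus rose in this step although both ended lower at P28 and P32. The Rras rise has no firm size, because 3 of its 7 P10 libraries were under 31 units.

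From P15 to P18, 1 gene was called, beside 3.84% of all probe sets. Rasa1 rose by 0.36 (SE 0.097, adjusted p = 0.0381), a call lost on leaving out any of 9 libraries (adjusted p from 0.0541 to 0.221). Without the heterozygous P18 library 1b, 0 genes were called in this step, beside 0.282% of all probe sets, and Rasa1 had a difference of 0.32 (adjusted p = 0.181). Without library 1a, 6 genes were called, beside 21.3%. From P18 to P20 limma called 0 genes, beside 0.0134% of all probe sets, where 567 probe sets had an unadjusted p below 0.05. Without the heterozygous P18 library 1a, 3 genes were called in this step, beside 5.68%, and without 1b, 0, beside 0.0134%. From P20 to P28, 6 genes were called, all down, beside 8.06%: Ksr1 fell by 0.98 (SE 0.17, adjusted p = 0.00134), Mapk9 by 0.96 (SE 0.20, adjusted p = 0.00449), Rasgrp1 by 0.78 (SE 0.14, adjusted p = 0.00198) and Map2k4 by 0.59 (SE 0.097, adjusted p = 0.000881). Rap1gap fell by 0.77 (SE 0.22, adjusted p = 0.0308) and Grb2 by 0.49 (SE 0.15, adjusted p = 0.0482), calls lost on leaving out any of 6 and 21 of the 30 libraries (adjusted p up to 0.223 and 0.22). From P28 to P32 limma called 0 genes, beside 0.0134% of all probe sets, with 207 at an unadjusted p below 0.05.

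The comparison of heterozygous with wild-type pools asks whether losing a copy of the Ras inhibitor gene goes with other levels of the pathway's transcripts. Over all ages limma called 0 of the 26 genes and 0% of all probe sets, while 698 probe sets had an unadjusted p below 0.05. The median difference of the 26 genes was -0.011, against -0.0032 over all probe sets. At P10 limma called 0 genes, beside 0.0403% of all probe sets, and at P15 0 genes, beside 0%, the ages with the most pools. At P28 it called 0, beside 0.0134%, and at P32, with 1 heterozygous pool, 0, beside 0.0537%. Unadjusted p-values below 0.05 numbered 443, 440, 385 and 509 probe sets at these 4 ages. The MEK1 gene Map2k1 differed by -0.071 at P10 (95% confidence interval -0.36 to 0.22) and by 0.028 at P15 (-0.24 to 0.29). The ERK phosphatase gene Dusp6 differed by 0.21 (-0.048 to 0.46) and 0.11 (-0.12 to 0.35) at the same ages.

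**Figure D3:**
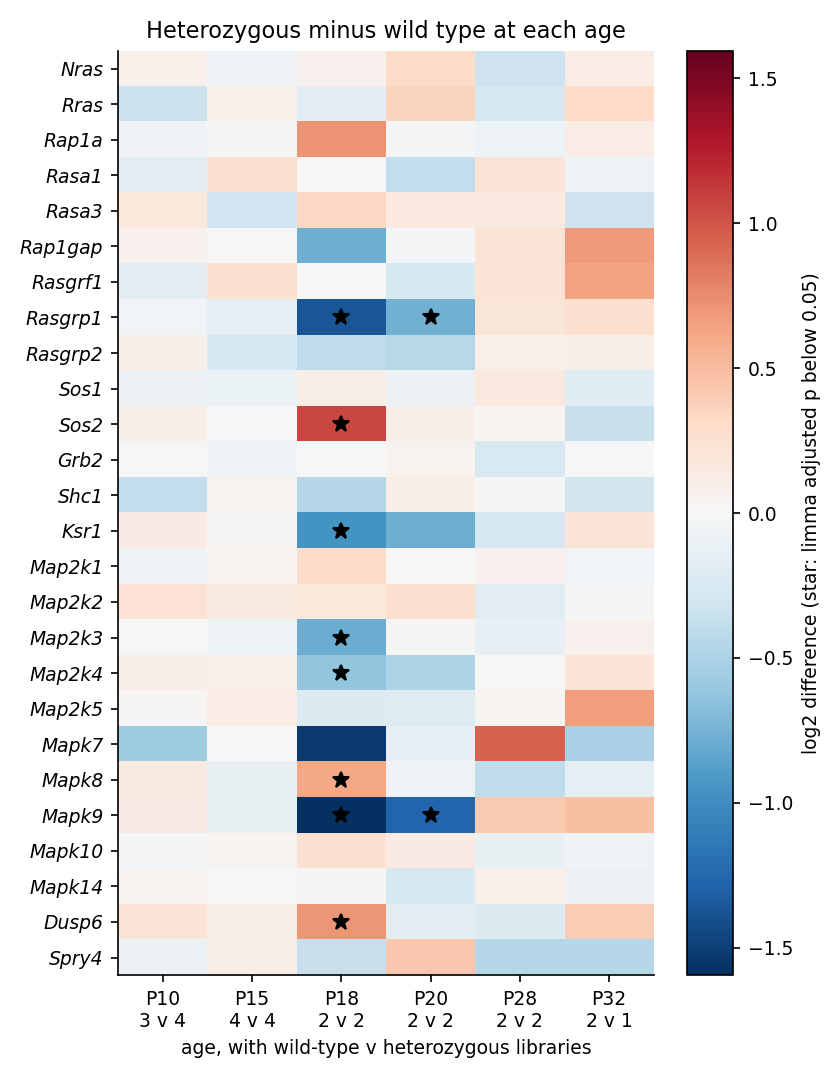
Log2 difference, heterozygous minus wild type, for the 26 measured genes at each age, with red for higher and blue for lower in heterozygotes, stars for a limma adjusted p below 0.05 and the number of libraries under each age. Stars stand only at P18 (8 genes) and P20 (2 genes).

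At P18 the genotypes differed for 8 of the 26 genes, 3 higher and 5 lower in heterozygotes, beside 22.8% of all probe sets. The median difference of the 26 genes was -0.0069, against -0.052 over all. Of the lower genes, the JNK2 gene Mapk9 and the exchange factor gene Rasgrp1 had the largest differences. In wild type Mapk9 showed 137, 163 and 126 at P10, 181, 192, 199 and 187 at P15, 261 and 256 at P18, 282 and 300.1 at P20, 91.5 and 76.7 at P28 and 62.9 and 91.9 at P32. In heterozygotes Mapk9 showed 162, 124, 146 and 194 at P10, 175, 208, 135 and 190.1 at P15, 133 and 55.1 at P18, 102 and 145 at P20, 99.8 and 124 at P28 and 107 at P32. The wild-type Mapk9 values were highest at P18 and P20 and lowest at P28 and P32, and all heterozygous libraries of P18 and P20 were below the wild-type libraries of those ages. Mapk9, read by 1 probe set (chromosome 11, 49846728 to 49886421), had a heterozygous minus wild-type difference of -1.60 at P18 (SE 0.28, 3.02-fold, adjusted p = 0.000799) and of -1.26 at P20 (SE 0.28, adjusted p = 0.0179).

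In wild type Rasgrp1 showed 109, 87.7 and 115 at P10, 154, 199, 148 and 131 at P15, 236 and 229.8 at P18, 214 and 191 at P20, 91.6 and 77.4 at P28 and 60.9 and 77.1 at P32. In heterozygotes Rasgrp1 showed 114, 89.6, 120.4 and 81.9 at P10, 129, 146, 148 and 139 at P15, 103 and 79.4 at P18, 109 and 129 at P20, 96.4 and 95.7 at P28 and 81.8 at P32. For Rasgrp1 too, all 4 wild-type libraries of P18 and P20 lay above the heterozygous ones of those ages. Rasgrp1 (chromosome 2, 117279983 to 117342877) differed by -1.36 at P18 (SE 0.20, adjusted p = 0.000315) and by -0.77 at P20 (SE 0.20, adjusted p = 0.0461). In wild type Ksr1 showed 74.8, 89.02 and 74.8 at P10, 90.4, 126, 134 and 174 at P15, 167 and 142 at P18, 155 and 156 at P20, 66.7 and 65.7 at P28 and 54.7 and 41.8 at P32. In heterozygotes Ksr1 showed 86.2, 82.1, 84.4 and 94.9 at P10, 118, 137, 129.9 and 135 at P15, 87.8 and 72.1 at P18, 70.1 and 117 at P20, 47.2 and 63.9 at P28 and 55.3 at P32. The scaffold gene Ksr1 differed by -0.95 at P18 (adjusted p = 0.00721) and by -0.78 at P20, which did not pass (adjusted p = 0.08).

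In wild type Map2k4 showed 299, 309 and 295 at P10, 329, 317, 351 and 307 at P15, 408 and 397 at P18, 407 and 423 at P20, 229.5 and 235 at P28 and 202 and 204 at P32. In heterozygotes Map2k4 showed 304, 304, 377 and 320.2 at P10, 383, 385, 289 and 333 at P15, 287 and 236 at P18, 275 and 318 at P20, 239 and 228 at P28 and 237 at P32. Map2k4, the kinase kinase above JNK, differed by -0.63 at P18 (adjusted p = 0.00331) and by -0.49 at P20 (adjusted p = 0.0552, not called). Its wild-type values at P18 and P20 were the highest of the series and did not overlap with the heterozygous ones. In wild type Map2k3 showed 179.9, 174 and 167 at P10, 183, 192, 138 and 208 at P15, 221 and 198 at P18, 198 and 175 at P20, 148 and 181 at P28 and 159.9 and 161 at P32. In heterozygotes Map2k3 showed 147, 178, 179 and 194 at P10, 179, 196, 113 and 207 at P15, 159 and 92.4 at P18, 174 and 204 at P20, 148 and 151 at P28 and 167 at P32. Map2k3, an activator of p38, differed by -0.79 at P18 (adjusted p = 0.0223), with the heterozygous library 1b lowest of all. Its second probe set (93315_at) differed by -0.38 and was not called (adjusted p = 0.179).

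**Figure D4:**
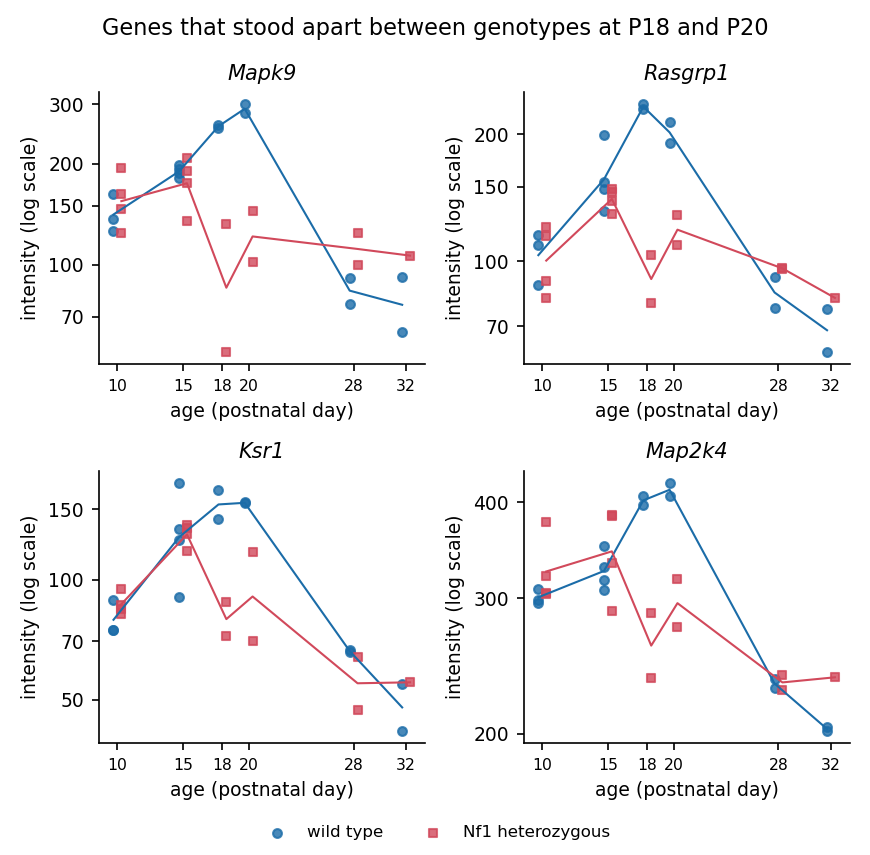
Intensity (log scale) against age in postnatal days for Mapk9, Rasgrp1, Ksr1 and Map2k4, with a point per library, wild type in blue circles and Nf1 heterozygotes in red squares, and lines through the geometric mean of each group. At P18 and P20 every wild-type point of each gene lies above every heterozygous point, while the genotypes overlap at P10 and P15.

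The 3 genes that were higher in heterozygotes at P18 were Sos2, Dusp6 and Mapk8. In wild type Sos2 showed 93.8, 83.6 and 106 at P10, 89.5, 90.3, 92.4 and 70.5 at P15, 78.9 and 60.3 at P18, 83.2 and 88.9 at P20, 119 and 112 at P28 and 132 and 132 at P32. In heterozygotes Sos2 showed 109.5, 84.1, 118 and 92.9 at P10, 81.4, 80.1, 96.2 and 82.5 at P15, 117 and 177 at P18, 109 and 79.00 at P20, 121 and 114 at P28 and 103 at P32. The heterozygous P18 library 1b held the highest Sos2 value of the series, and the P18 groups did not overlap. Sos2 differed by 1.06 (SE 0.21, adjusted p = 0.00139). Dusp6 read 318 and 304 in wild type and 506 and 504 in heterozygotes at P18, a difference of 0.70 (SE 0.16, adjusted p = 0.00459). Mapk8 read 301 and 339 in wild type, its lowest wild-type values, and 436 and 550.1 in heterozygotes, a difference of 0.62 (SE 0.14, adjusted p = 0.00516). Opposite differences at P18 thus stood between the JNK genes Mapk8 and Mapk9, while Mapk10 differed by 0.25 (adjusted p = 0.183) and was not called. At P20, 2 genes were called, both lower in heterozygotes (Mapk9 and Rasgrp1), beside 2.27% of all probe sets.

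The test of whether the genotype difference varies with age called 5 of the 26 genes, beside 6.49% of all probe sets: Rasgrp1 and Mapk9 (both adjusted p = 0.00787), Map2k4 (0.019), Mapk8 (0.0289) and Sos2 (0.045). Without the heterozygous P18 library 1b, 2 of the 26 genes were called, beside 2.64% of all probe sets, and without library 1a, 9, beside 24.4%. Without the wild-type P18 library 1c or 1d, 2 were called, beside 1.4% and 1.27%, and without the heterozygous P28 library 1b, 3, beside 3.85%. Without both heterozygous P18 libraries 1 gene was called, beside 1.48%, and Mapk9 still passed (adjusted p = 0.0179).

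The differences at P18 depended on single libraries. Without the heterozygous P18 library 1b, 3 genes were called, beside 3.54% of all probe sets. Without library 1a, 13 were called, beside 37.2%, so the shares rose and fell over the whole array. Without the wild-type P18 library 1c, 5 were called, beside 11%. Mapk9 at P18 differed by -0.96 without 1b (adjusted p = 0.0459) and by -2.23 without 1a. Rasgrp1 differed by -1.17 without 1b (adjusted p = 0.0141), and Dusp6 was the third gene called without it. The other 5 genes were not called without 1b. Map2k3 differed by -0.40 (adjusted p = 0.425), against -0.79 with it. Sos2 differed by 0.76 (adjusted p = 0.066), Ksr1 by -0.81 (adjusted p = 0.124), Map2k4 by -0.49 (adjusted p = 0.081) and Mapk8 by 0.45 (adjusted p = 0.133), all in the same direction as with 1b. Ksr1, Map2k3 and Mapk8 also lost their calls without the wild-type P18 library 1c (adjusted p = 0.0675, 0.115 and 0.0554), and Map2k3 without 1d (0.0788). At P20 limma called 0 genes without the wild-type library 2a, the wild-type library 2b or the heterozygous library 1a, where the adjusted p of Mapk9 was 0.138, 0.16 and 0.166. The Rasgrp1 call at P20 was lost on leaving out any of 17 of the 30 libraries (adjusted p from 0.0506 to 0.287).

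The Gapdh control ratio also lay apart between the genotypes at P18 and P20. It ranged from -0.26 to -0.23 in the wild-type pools of P18 and from -0.33 to -0.30 in those of P20. In heterozygotes it ranged from -0.051 to 0.48 at P18 and from 0.0034 to 0.17 at P20. The wild-type P15 libraries 2c and 2d also had low ratios (-0.26 and -0.24), with Mapk9 at 199 and 187. In the wild-type pools the ratio ranged from 0.045 to 0.15 at P28 and from -0.0055 to 0.10 at P32. With this ratio as a covariate, 1 gene stayed called at P18 (Rasgrp1, -1.39, adjusted p = 0.0258), beside 1.07% of all probe sets, 0 at P20, beside 0.577%, and 0 in the interaction, beside 0.295%. Mapk9 then differed by -0.89 at P18 (adjusted p = 0.155) and by -0.63 at P20 (adjusted p = 0.352). Its fall with maturation remained called with the covariate (-0.58, adjusted p = 0.000825). At P20 all wild-type titles carry the number 2 and all heterozygous titles the number 1, so title number and genotype cannot be told apart there. At P18 the wild-type titles carry the letters c and d and the heterozygous titles a and b. Title letter and genotype thus cannot be told apart at P18. Markers of other cell types also differed at P18, where 22.8% of all probe sets were called: 4 of 7 microglial, 2 of 3 blood, 2 of 6 thalamic and 1 of 4 choroid plexus markers were lower in heterozygotes. Of 8 astrocyte markers 2 were higher and 1 lower, as for 9 endothelial and mural markers and for 8 markers of immature neurons. Of 8 markers of pyramidal and granule neurons 2 were higher, of 8 interneuron markers 1 was higher, and 0 of 7 oligodendrocyte markers were called. Without library 1b the called markers were 2 thalamic ones and 1 endothelial or mural one, lower, and 1 astrocyte and 1 interneuron marker, higher, with 0 microglial and 0 blood markers, beside 3.54% of all probe sets. Summed microglial markers ranged from 2560.3 to 2566 in wild type and 1894 to 2263 in heterozygotes, and summed blood markers from 3636 to 4494 and 1755 to 2966. Summed thalamic markers ranged from 876 to 949 and 557 to 711, and summed astrocyte markers from 6209 to 6639 and 7060.1 to 9135, in the same order of genotypes. The genotypes did not overlap in any of these 4 sums. They also lay apart for choroid plexus (3028 to 3556 in wild type, 2150 to 2500 in heterozygotes) and endothelial and mural markers (971 to 995, 856 to 968). So did sums of immature neuron markers (6367 to 7270, 7529 to 8226). Those of pyramidal and granule neurons, interneurons and oligodendrocytes overlapped. With 2 libraries per genotype, ranges can lie apart by chance. Ptprc, Aif1 and Itgam were too dim to measure. The part of RNA quality and of these cells in the P18 differences was not tested beyond these values.

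**Figure D5:**
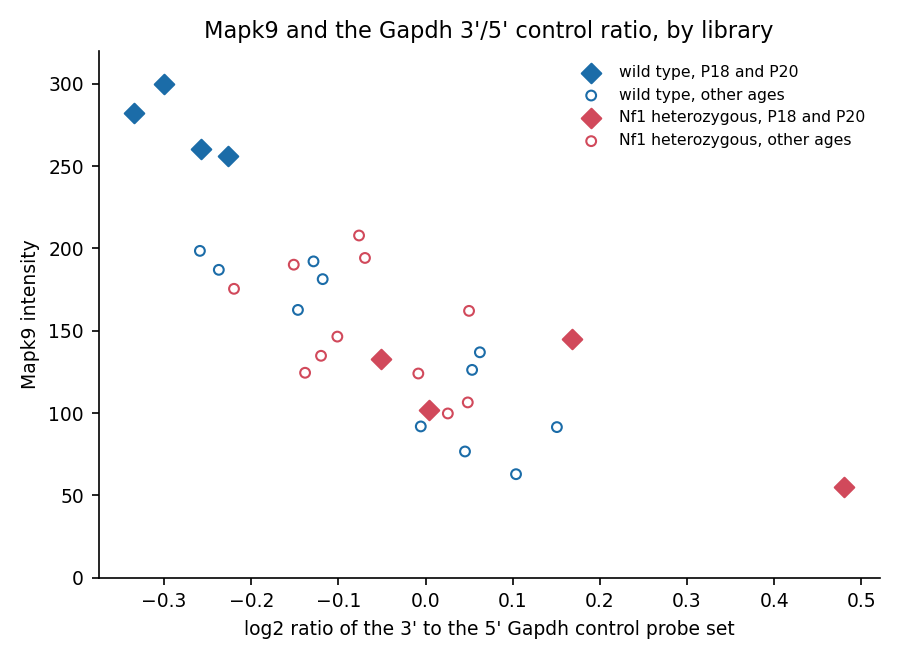
Mapk9 intensity against the log2 ratio of the 3' to the 5' Gapdh control probe set for each of the 30 libraries, wild type in blue and Nf1 heterozygotes in red, with filled diamonds for P18 and P20. The 4 wild-type libraries of P18 and P20 have the highest Mapk9 values and ratios of -0.23 or lower, and the heterozygous P18 library 1b has the highest ratio, 0.48. The wild-type P15 libraries 2c and 2d have ratios of -0.26 and -0.24, with lower Mapk9 values.

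A wider list of 138 genes of the same signalling network, outside the 37, had 92 genes with a probe set and 65 measured. With maturation over both genotypes 42 of the 65 were called, 26 up and 16 down, beside 53.7% of all probe sets. Erbb3, a neuregulin co-receptor that oligodendrocyte lineage cells also carry, rose by 2.80 on the log2 scale, Rasd1, a small GTPase induced by glucocorticoids, by 1.59, and the growth factor receptor gene Fgfr2 by 0.98. Egr1, an immediate early transcription factor gene downstream of ERK, rose by 1.41, the JNK and p38 phosphatase gene Dusp16 by 1.19 and the kinase gene Nlk by 0.99. Mapk8ip1, a scaffold of the JNK cascade, fell by 1.14, Pdgfra, the receptor of oligodendrocyte precursors, by 1.05, and the transcription factor gene Mef2c by 0.87. The small GTPase gene Rala fell by 0.83, its exchange factor gene Ralgds by 0.81 and Map3k1, a kinase above Map2k4, by 0.83. The adjusted p of these 12 genes ranged from 1.93e-09 to 5.96e-05. By role, 5 of 8 receptor tyrosine kinase genes, 7 of 9 other small GTPase genes, 5 of 6 MAP kinase phosphatase genes and 8 of 11 genes for transcription factors downstream of MAP kinases were called. None of the 4 measured genes for kinases downstream of MAP kinases was called (0 of 4). At P18, 16 of the 65 differed between genotypes, 11 higher and 5 lower in heterozygotes, beside 22.8% of all probe sets. Without the heterozygous P18 library 1b, 2 of the 65 were called, 1 higher and 1 lower, beside 3.54%. At P20 1 of the 65 was called, beside 2.27% of all probe sets: the receptor gene Igf1r, which was higher by 1.40. The P18 values share the libraries and the control ratio described above.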

How the data were processed

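The authors deposited intensities on a linear scale, 1 value for each of 12488 probe sets and each of 30 arrays, in a table of the whole series. Trimmed by 2% on both sides, the array means ran from 150.083 to 150.09, which shows that the deposited intensities had been scaled, with software that no source used here names. Values below 1 (6295 values) were set to 1 and log2 was taken, with no further normalization. After removal of 66 control probe sets and of the dimmest 40% by mean log2, 7453 probe sets were tested, the lowest with a mean intensity of 30.9. Gene names came from the platform annotation (10833 probe sets with 1 symbol, 396 with several, 1193 with none), and gene positions on GRCm38.p6 came from RefSeq for the 10817 probe sets it matched.

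Differences were tested with limma 3.58.1 (R 4.3.3) with an intensity trend, over all 30 arrays, with 1 mean per genotype and age (17 comparisons), and an age and genotype model for the genotype effect over all ages. Benjamini-Hochberg adjustment ran over all probe sets tested. Genes were counted by their brightest probe set. Every gene of the list is named. Values of every library are given for the 12 called genes with the largest change with maturation, for those called between genotypes, and Braf, too dim to measure, by its range. Of the wider list the 6 largest rises and 6 largest falls are named. The 37 genes, the wider list and the marker lists were chosen with earlier results of these data known. The computations were tested on simulated data. Alternatives covered normalization, floor, filter, trend, array weights, title code and title number as replicate blocks, the Gapdh ratio as a covariate, subsets of samples and leaving out each library.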

Additional observations from a re-analysis of the deposited data

Results flagged for a closer look

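In groups of 4 libraries, a library was looked at again where its gap to the nearest other was a large part of the range of its group by Dixon's test. Of 54 such groups over the 18 genes given in every library, 2 had such a library, both for Sos2 at P15, and chance gives about 5% (1 in 20). The heterozygous library 2c read 96.2, above 80.1 to 82.5 in the other 3. The wild-type library 2d read 70.5, below 89.5 to 92.4 in the other 3.

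The genotype difference varied with age for 5 genes by the interaction test of limma: Rasgrp1 (adjusted p = 0.00787), Mapk9 (0.00787), Map2k4 (0.019), Mapk8 (0.0289) and Sos2 (0.045). Rasgrp1, Mapk9 and Map2k4 were lower in heterozygotes at P18, and Mapk8 and Sos2 were higher. The Sos2 call was lost on leaving out any of 23 of the 30 libraries (adjusted p from 0.0501 to 0.259), the Mapk8 call for 5 (0.0535 to 0.121) and the Map2k4 call for 3 (0.0563 to 0.0677).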

How the results depend on the processing

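Counts are of the 26 measured genes called. Over the 88 called results of single genes, 3323 refits kept direction and call, 313 kept the direction but lost the call and 0 reversed. With the title code as a replicate block, the count (in parentheses the share of all probe sets) fell from 18 to 11 for wild-type maturation (38.2% to 26.6%), from 13 to 6 for P10 to P15 (25.9% to 8.29%), from 1 to 0 for P15 to P18 (3.84% to 1.5%), from 6 to 3 for P20 to P28 (8.06% to 1.6%), from 8 to 2 at P18 (22.8% to 1.68%), from 2 to 0 at P20 (2.27% to 0.134%) and from 5 to 0 for the interaction (6.49% to 0.765%). With the title number as a replicate block it fell from 2 to 0 at P20 (2.27% to 0.564%). Same-coded libraries deviated from their group means with correlations from -0.342 to 0.155 (median -0.0045, 12 of 59 pairs over 0.1). Differently coded libraries ranged from -0.254 to 0.342 (median 0.0018, 46 of 319 pairs over 0.1). In groups of 2 libraries the deviations mirror each other, so these correlations cannot decide whether the codes pair the samples. With title number 1 only, 7 were called for wild-type maturation, 4 for P10 to P15, 0 for P15 to P18 and 1 for the interaction, and the P20 difference could not be estimated. With array weights, 0 were called for P15 to P18, 3 at P18, 4 at P20 and 3 for the interaction. With only the groups compared, 0 were called for P15 to P18, 0 at P18 and 1 at P20. Without the filter, 0 were called for P15 to P18 and 1 at P20, and without the intensity trend 1 at P20. With the Gapdh ratio as a covariate, 0 were called for P15 to P18, 1 at P18, 0 at P20 and 0 for the interaction. With the probe set of the largest interquartile range for each gene, 2 were called for P15 to P18. Without both heterozygous P18 libraries, 1 was called for the interaction. The cause of these shifts was not tested, and designs with blocks or fewer samples hold fewer residual degrees of freedom. Where no share of all probe sets stands beside a count, the count alone does not show whether the list moved apart from the array.

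Leaving out 1 library at a time, counts ranged from 17 to 20 for maturation over both genotypes, 13 to 18 in wild type, 14 to 18 in heterozygotes, 12 to 14 for P10 to P15, 0 to 6 for P15 to P18, 0 to 3 for P18 to P20, 4 to 8 for P20 to P28, 3 to 13 at P18, 0 to 3 at P20 and 2 to 9 for the interaction, and stayed at 0 for the other comparisons. Maturation over both genotypes and in heterozygotes, and results at P32, could not be estimated without the only heterozygous P32 library. These ranges stand without the share of all probe sets, so they do not show whether the list moved apart from the array. Most groups hold 2 pools, so a lone pool left in a group was assumed to vary like the other groups. Values near the floor, such as late Mapk7 and P10 Rras, give the size of a change only roughly.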
